A study of Mus musculus with 4 samples.

Results

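The genes Scx, Tnmd, Mkx and Htra3, here called the tendon progenitor genes, were followed in limb RNA of mouse embryos at E12.5. They were chosen by name, as a set of genes of the tendon lineage. Each of the 4 genes has 1 probe set among the 16492 probe sets tested. RNA was measured on 4 arrays, 2 of embryos that carried a SHOX transgene and 2 of wildtype littermates, all labelled as strain C57BL/6 though the founders came from C57BL/6 x DBA/2 hybrid eggs. In the transgenic embryos the human SHOXa cDNA was driven by a Col2a1 promoter and enhancer, a cassette used for cartilage cells. By in situ hybridization in the study, its RNA was seen around the cartilage anlagen at this stage. The study also likened this pattern to that of Col2a1, a gene of cartilage-forming tissue. The sources do not say whether tendon progenitors carried the transgene RNA. The study used 2 transgenic lines, and the sources used here do not say which of them was put on the arrays. Each array carried a pool of 2 to 4 littermates of 1 genotype with fore- and hindlimbs together. A suffix shared by the array titles places 1 array of each genotype in each of 2 hybridization experiments, called A (replicate 1 of each genotype) and B (replicate 2) in no order.

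Tendons arise from limb mesenchyme beside the cartilage anlagen. Scx, the basic helix-loop-helix factor scleraxis, marks the progenitors before they can be told apart by shape. Mkx, the homeodomain factor mohawk, acts in the later build-up of collagen fibrils. Tnmd, tenomodulin, is a membrane glycoprotein of maturing tendon cells whose expression depends on Scx, and TGF-beta and FGF signals induce the lineage. Htra3 is a secreted serine protease of the HtrA family, known to inhibit TGF-beta family signalling, and its place among tendon genes rests on the list used here.

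The homeodomain of SHOX recognises the letters ATTA, which read TAAT on the other strand, so the start regions of the members are shown with these letters in capitals. The RefSeq promoter table used here (build GRCm38.p6) holds a 300-base window for 2 of the 4 genes, Tnmd at chrX:133850758-133851057 on the plus strand and Htra3 at chr5:35679731-35680030 on the minus strand.
Tnmd: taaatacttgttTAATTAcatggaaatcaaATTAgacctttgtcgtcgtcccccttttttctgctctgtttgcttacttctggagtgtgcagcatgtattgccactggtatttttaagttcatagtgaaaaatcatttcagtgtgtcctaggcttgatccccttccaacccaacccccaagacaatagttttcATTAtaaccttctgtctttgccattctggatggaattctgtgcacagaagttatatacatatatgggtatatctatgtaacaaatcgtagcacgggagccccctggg
Htra3: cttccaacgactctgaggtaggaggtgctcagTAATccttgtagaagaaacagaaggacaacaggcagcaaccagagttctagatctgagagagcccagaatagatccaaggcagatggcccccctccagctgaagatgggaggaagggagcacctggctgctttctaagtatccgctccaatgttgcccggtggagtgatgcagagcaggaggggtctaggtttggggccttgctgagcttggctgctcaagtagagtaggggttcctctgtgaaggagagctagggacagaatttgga
The Tnmd window has 4 such matches, beginning at bases 13, 15, 31 and 194 of the window, of which the first 2 overlap. The Htra3 window has 1, at base 33. Of 32851 windows of this length in the table, 58.0% hold at least 1 match and 11.6% at least 4. The E-box CANNTG, the letters that helix-loop-helix factors such as Scx bind, occurs 3 times in the Htra3 window and 0 times in that of Tnmd, against 72.3% of windows with at least 1. These matches describe letters and say nothing of binding.

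The 4 genes differed little between genotypes. Values are log2 units of the probe set, and a difference of 1 is a doubling. Scx had values of 9.79 and 10.12 in wildtype and of 9.86 and 10.04 in transgenic limbs, for experiments A and B in that order. The transgenic pair lay inside the range of the wildtype pair. Wildtype limbs had a mean of 9.95 ± 0.23 (SD, n = 2), transgenic limbs one of 9.95 ± 0.12 (SD, n = 2). The log2 fold change was -0.01, made up of 0.07 in experiment A and -0.08 in experiment B.

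Tnmd had values of 7.30 and 6.87 in wildtype and of 7.40 and 6.89 in transgenic limbs. Each transgenic array lay above the wildtype array of its own experiment, by 0.10 in A and by 0.02 in B, but the genotypes overlapped because both arrays of A were higher than both of B. Transgenic limbs had a mean of 7.15 ± 0.36 (SD, n = 2), wildtype limbs one of 7.09 ± 0.30 (SD, n = 2), a log2 fold change of 0.06. Tnmd lies on the X chromosome. On the same arrays Xist, which is made from the inactive X of females, was lower in transgenic limbs, with log2 differences of -3.03 in A and -2.94 in B. The Y-linked Eif2s3y was higher, with differences of 1.02 and 0.64. The sources give no sex for the pools. Since both genes differed by genotype in both experiments, the sex makeup of the pools and the genotype cannot be told apart in any genotype difference or call given here, those of the matrix genes and relatives included.

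Mkx was the member with the largest genotype difference of the 4. Its values were 8.40 and 8.19 in wildtype and 8.49 and 8.39 in transgenic limbs. It was higher in transgenic limbs within both experiments, by 0.10 in A and by 0.20 in B, yet the lower transgenic value fell just under the higher wildtype value. The transgenic mean of 8.44 ± 0.07 (SD, n = 2) and the wildtype mean of 8.29 ± 0.15 (SD, n = 2) gave a log2 fold change of 0.15. Of all probe sets 4.92% had a larger genotype difference in either direction.

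Htra3 hardly moved. Its values were 6.86 and 6.90 in wildtype and 6.86 and 6.89 in transgenic limbs, a range of 0.04 over the 4 arrays. Both groups had a mean of 6.88, with an SD of 0.02 in transgenic and of 0.03 in wildtype limbs (n = 2 each). The log2 fold change was -0.01. Of all probe sets 91.0% had a larger genotype difference than Htra3, and 93.2% a larger one than Scx. RefSeq lists more than 1 transcript of Htra3, and its single probe set does not separate them.

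**Figure D1:**
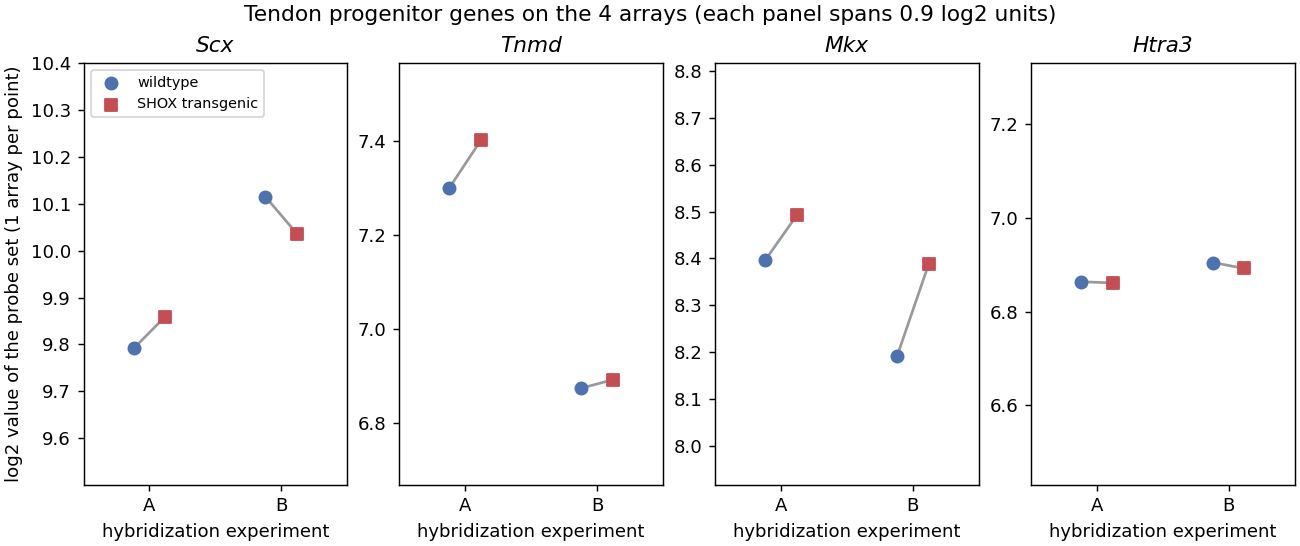
Log2 value of each member on each of the 4 arrays, with the hybridization experiment on the x axis, wildtype as circles and SHOX transgenic as squares, and a line joining the 2 arrays of an experiment. Tnmd falls from 7.30 and 7.40 in A to 6.87 and 6.89 in B and Scx rises, whereas Htra3 stays within 0.04 and Mkx is higher in the transgenic array of both experiments.

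The question these arrays address is which limb genes differ when SHOX is expressed. The thresholds used here, a difference beyond 0.2 on the log2 scale with p under 0.05 before adjustment, take their sizes from the study. The study asked for a change in both experiments, used another model and does not say whether its p was adjusted. None of the 4 members passed them in limma with genotype as the only term. In that fit 0.188% of all probe sets passed, 22 higher and 9 lower, or 18 higher and 19 lower with the arrays centred on a common median. The adjusted p from limma was 1 for each member in this fit, in which 0 probe sets reached an adjusted p under 0.05 and 32 an unadjusted p under 0.05. With the experiment as a block, which takes the difference between experiments out of the error, again 0 of 4 members passed the thresholds, against 1.55% of all probe sets. An adjusted p under 0.05 was reached by 0 of 4 members and by 0.273% of all probe sets. Mkx alone had an unadjusted p under 0.05 in the blocked fit, as did 7.92% of all probe sets, and its adjusted p was 0.508. Among the members, 2, Tnmd and Mkx, were higher in transgenic limbs within both experiments, as were 22.4% of all probe sets. Beyond 0.2 in the same direction within both experiments, with no test, lay 0 of 4 members and 0.485% of all probe sets. In 0 of 4 members did both transgenic arrays lie above both wildtype arrays, which 5.67% of all probe sets did. An exact permutation test of 2 arrays against 2 cannot give a two-sided p below 0.333. The pools are described as biological replicates, and how many litters they came from is not given. Without the block the p-values rest on the spread between 2 pools per genotype. With the block they rest on how the genotype difference varied between the experiments. In both fits limma also borrows spread from other probe sets.

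The intervals of the genotype difference bound what these arrays could have missed. With the block, the 95% interval from limma for Scx ran from -0.13 to 0.12 on the log2 scale, which is a linear ratio of transgenic to wildtype between 0.912 and 1.09. That for Htra3 ran from -0.13 to 0.11 and that for Tnmd from -0.06 to 0.18. All 3 leave out a log2 fold change of 0.2 in either direction. Tnmd and Htra3 lay below the 50th percentile of mean signal, and signal over background is unknown. Their intervals therefore bound the signal of the probe set and not expression as such. For Mkx the interval ran from 0.02 to 0.27, a linear ratio between 1.02 and 1.21. With the block, each probe set keeps 1 residual degree of freedom of its own beside 16.4 that limma takes from all probe sets, so the standard errors of 0.06 shared by the 4 members are mostly a spread borrowed from other genes. Without the block the intervals were -0.39 to 0.38 for Scx, -0.57 to 0.69 for Tnmd, -0.14 to 0.43 for Mkx and -0.21 to 0.19 for Htra3, each of which includes 0.2, -0.2 or both. With 1 array left out and no block, the log2 fold change ran from -0.17 to 0.16 for Scx and from -0.20 to 0.32 for Tnmd, while Mkx stayed above 0 at 0.04 to 0.25. Scx was above 0 and Tnmd below 0 without transgenic replicate 1 (0.08 and -0.20) or wildtype replicate 2 (0.16 and -0.15). In these unbalanced fits the genotypes no longer hold both experiments equally, and the experiment enters the genotype difference.

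**Figure D2:**
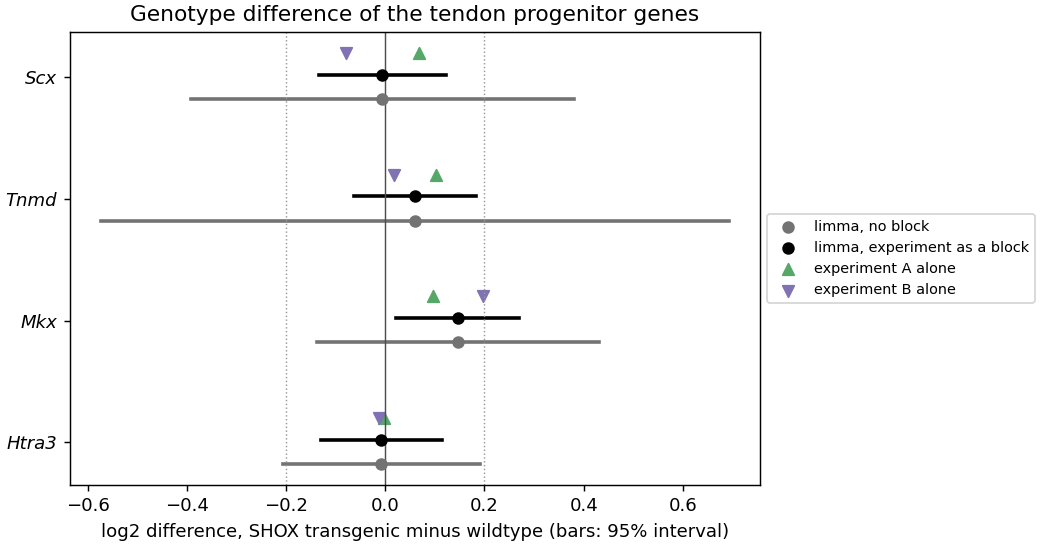
Log2 difference between transgenic and wildtype limbs for the 4 members, as the limma estimate with its 95% interval without a block (grey) and with the experiment as a block (black), and as the difference within experiment A and within experiment B (triangles). Dotted lines mark 0.2 in either direction. The black interval of Mkx, 0.02 to 0.27, is the only one that leaves out 0, and the grey interval of Tnmd is the widest.

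All 4 members varied more between the experiments than between the genotypes, though Mkx only slightly (0.155 against 0.146), and not in 1 direction. Tnmd was higher in experiment A than in B by 0.47 on average over both genotypes, by 0.43 in the wildtype and by 0.51 in the transgenic pair. Scx was lower in A than in B by 0.25 on average (log2 difference, A minus B, of -0.25). Mkx was higher in A by 0.15, close to the size of its genotype difference, and Htra3 was lower in A by 0.04 (A minus B of -0.04). The arrays of A lay all above or all below those of B for each of the 4 members, and for 66.4% of all probe sets. An absolute difference between experiments larger than that of Tnmd was found in 5.40% of all probe sets, and larger than that of Scx in 22.3%. Scx and Tnmd thus stood in opposite order in the experiments, with the same order in wildtype and transgenic limbs. Of all probe sets, 31.9% had both arrays of A above both of B and 34.5% had them below. Opposite orders between genes are therefore common, and Tnmd lay below the 50th percentile of mean signal. Whether the contrast has to do with progenitors and maturing tendon cells was not tested. In bulk RNA, fewer cells of a type and less RNA per cell cannot be told apart. Scx lies inside the span of another gene, Bop1, which acts in ribosome assembly. Bop1 has its own probe set, which was also lower in A, by 0.34 on average (A minus B of -0.34), and had a genotype difference of -0.08. Whether the signals are shared was not tested. Bop1 was looked at because of its position, after the values of Scx were seen.

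**Figure D3:**
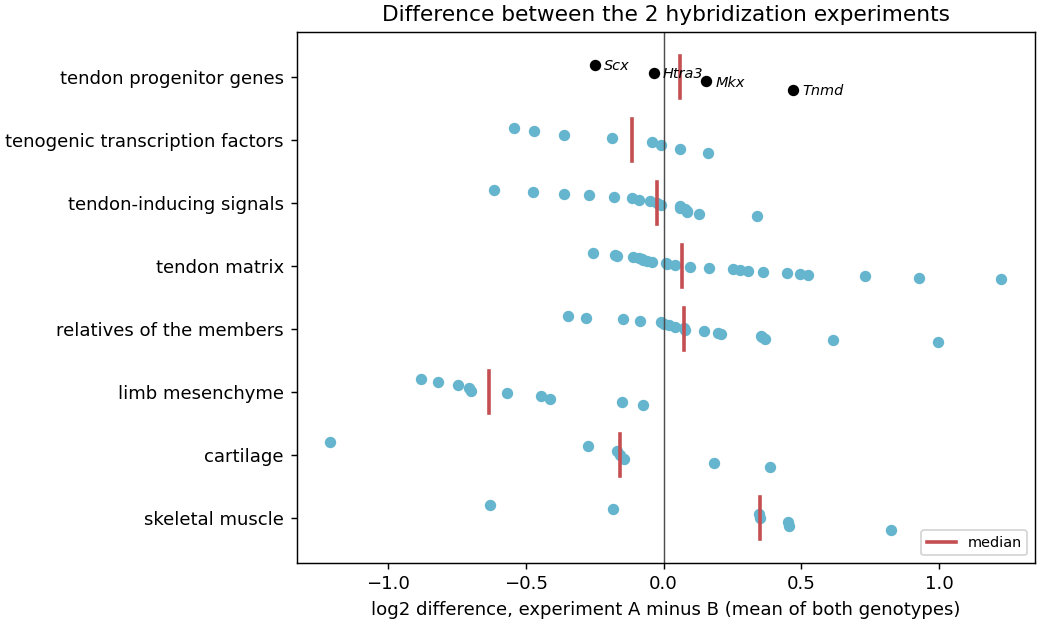
Log2 difference between experiment A and experiment B, averaged over both genotypes, for each measured gene of 8 lists (1 gene per point, red line for the median). Tnmd lies at 0.47 and Scx at -0.25, the limb mesenchyme list has its median at -0.63 and the skeletal muscle list at 0.35.

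The gene lists describe what the same arrays did around the members. Of 8 measured transcription factors of the tendon lineage, 0 passed the thresholds with or without the block, and the median log2 fold change was 0.03, against -0.01 over all probe sets. Egr1, a zinc finger factor that promotes tendon collagen expression, was at 7.90 and 7.84 in wildtype and at 7.93 and 8.08 in transgenic limbs, and its log2 fold change of 0.14 came mostly from experiment B (adjusted p = 0.608 from limma with the block). Eya1, a transcriptional co-activator of limb connective tissue and muscle, had a log2 fold change of 0.12 with 0.11 in A and 0.14 in B. Etv4, a target of FGF signalling, and Nfatc4, a calcineurin-dependent factor, each had a log2 fold change of -0.07, below 0 in both experiments. The adjusted p-values of these 4 genes ran from 0.608 to 0.861 in that fit.

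Of 17 measured genes listed around the signals that act on tendon induction, again 0 passed with or without the block. Their median log2 fold change was 0.00. The list holds ligands, receptors and Smads beside genes that restrain such signals, among them Nog, Spry1, Spry2 and Dusp6. The ligand Fgf8, below the 50th percentile of mean signal, had a log2 fold change of -0.14 from experiment B alone (-0.28, against 0.00 in A). Bmp4, a ligand of the BMP branch, had one of -0.13, with -0.03 in A and -0.23 in B. Dusp6, a phosphatase that FGF signalling induces, was at -0.11, and Smad3, which carries the TGF-beta signal to the nucleus, at -0.07. The adjusted p-values of these 4 genes ran from 0.631 to 0.838 in limma with the block. Within both experiments 8 of the 17 were lower and 1 was higher, beside 30.5% and 22.4% of all probe sets. Because the list mixes genes that promote and genes that restrain the signals, this count gives no direction for tendon induction.

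Of 24 measured tendon matrix genes, 5 rose with the block and 0 fell, beside 1.55% of all probe sets called in either direction, and none passed without the block. With the block and centred arrays 2 of these 5, Dcn and Col1a1, were still called. Thbs4, Tnc and Col6a1, also among the 5, each had a log2 fold change of 0.21, just past the threshold of 0.2. The list holds general connective tissue genes such as Col1a1 and Dcn, so in whole limb RNA these values cannot be assigned to tendon. The median log2 fold change of the list was 0.12, with 0.04 in experiment A and 0.17 in experiment B. The list was chosen with earlier results of these arrays known, so its direction is no independent evidence. Dcn, the proteoglycan decorin, was the only one past an adjusted p of 0.05 (0.0129 from limma with the block). Its values were 10.73 and 9.37 in wildtype and 10.98 and 9.89 in transgenic limbs, so that each transgenic array was above its wildtype partner while experiment A exceeded B by 1.22. Thbs4, a thrombospondin of tendon and muscle attachments, rose by 0.22 in A and by 0.20 in B (adjusted p = 0.208). Its signal lay below the 50th percentile of mean signal. Tnc, tenascin C, rose by 0.10 and by 0.32 (adjusted p = 0.268). Col1a1, the main collagen chain of tendon, and Col6a1, a chain of pericellular collagen VI, had differences of 0.59 and 0.45 in experiment B, and of -0.05 and -0.03 in experiment A (adjusted p = 0.421 and 0.483). Lox, which cross-links collagen, had a log2 fold change of 0.18 that did not pass the fold threshold. Whether the matrix genes and the members differ from each other in their genotype difference was not tested.

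**Figure D4:**
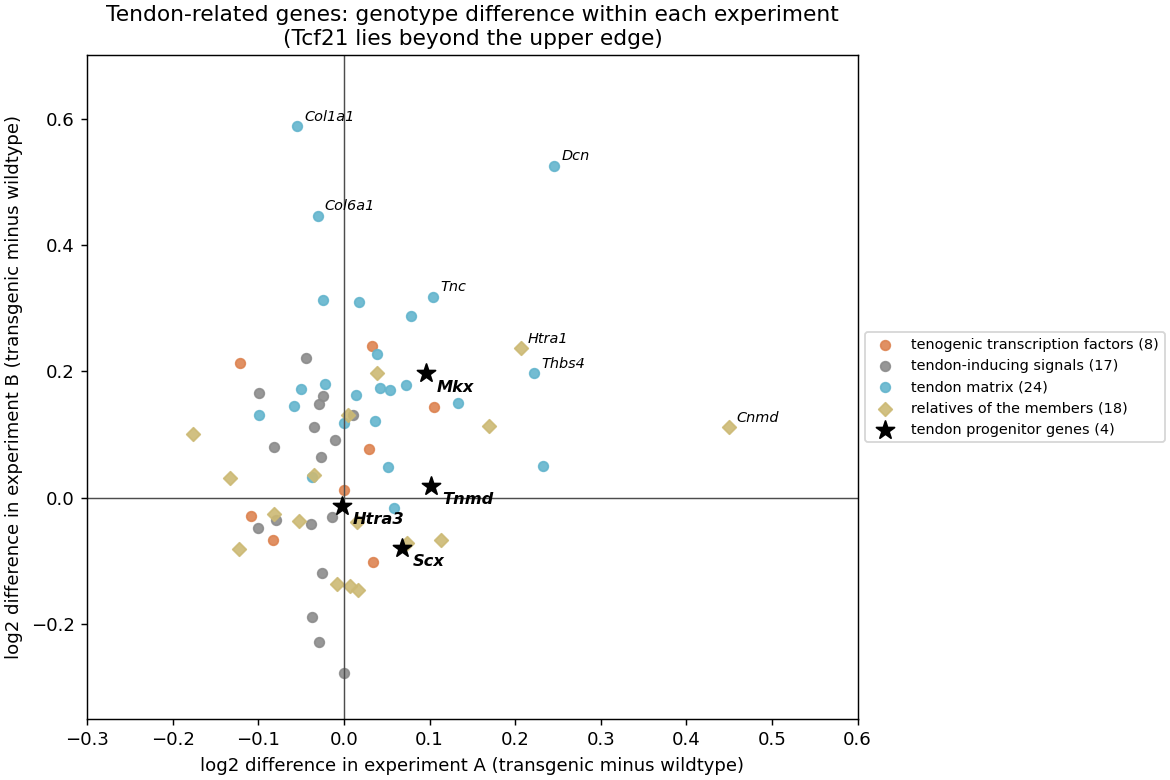
Log2 difference between transgenic and wildtype limbs in experiment A (x axis) against that in experiment B (y axis), for the 4 members (stars) and the measured genes of 4 tendon-related lists. Names mark genes past the thresholds with the block, and Tcf21 lies beyond the upper edge at 0.43 and 1.75. Col1a1 and Col6a1 lie high on the y axis and near 0 on the x axis, Dcn and Thbs4 are above 0 on both, and Scx and Htra3 lie near the origin.

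Close relatives of the members were set beside them. Cnmd, chondromodulin, the cartilage relative of Tnmd, had values of 9.26 and 8.81 in wildtype and of 9.71 and 8.92 in transgenic limbs. It rose by 0.28 with the block, by 0.45 in A and by 0.11 in B (adjusted p = 0.144 from limma). Cnmd was higher in A than in B by 0.62, the same direction between experiments as Tnmd at 0.47. Both arrays of A lay above both of B for 10 of the 18 relatives and for 31.9% of all probe sets. Htra1, the HtrA protease most studied in cartilage and bone, had values of 8.63 and 8.26 in wildtype and of 8.84 and 8.49 in transgenic limbs. It rose by 0.22, by 0.21 in A and by 0.24 in B (adjusted p = 0.158 from the same fit), beside -0.01 for Htra3. The signal of Htra3 lay below the 50th percentile, so its flat value describes the probe set and not expression as such. Among helix-loop-helix genes related to Scx, Tcf21, a factor of mesenchymal progenitors, rose by 1.09 with the block (adjusted p = 0.0069 from limma), with 0.43 in A and 1.75 in B. Its values were 8.07 and 6.42 in wildtype and 8.51 and 8.17 in transgenic limbs. The rise thus came mostly from the low wildtype array of experiment B, and Tcf21 lay below the 50th percentile of mean signal. Msc, musculin, had a log2 fold change of 0.14 with 0.17 in A and 0.11 in B. The 6 Iroquois genes, homeodomain relatives of Mkx, did not pass in either fit. In all, 3 of the 18 relatives passed the thresholds with the block, each higher, and 0 passed without it, beside 1.55% and 0.188% of all probe sets. Differences between a member and its relative were not tested.

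Markers of other cell types were read on the same arrays. For the counts that follow, 1.55% of all probe sets passed the thresholds with the block, 22.4% were higher in both experiments and 30.5% lower in both. The 7 skeletal muscle markers had a median log2 fold change of 0.15, with 0.07 in A and 0.23 in B. Of them, 4 were higher and 0 lower in both experiments, and 2 passed the thresholds with the block, both higher. The 7 cartilage markers had a median of 0.09, which came mostly from experiment B (0.006 in A and 0.20 in B). Of these, 4 were higher and 0 lower in both, and 2 passed, both higher. The 4 measured erythroid markers had a median of -0.18, with 3 lower in both and 1 past the thresholds. The 10 limb mesenchyme markers had a median of -0.07, with 1 higher and 8 lower in both and 1 that fell. The 4 markers of muscle connective tissue, the cells that lie nearest to tendon, had a median of 0.04, and the medians for epidermis, macrophages and endothelium ran from -0.02 to 0.05, with 0 called in each. The 4 measured markers of neurons and Schwann cells had a median of 0.06, with 0.33 in A and -0.06 in B, and 1 passed, higher. Between experiments, the 10 limb mesenchyme markers were each lower in A than in B, by 0.07 to 0.88, and 9 of them had both arrays of A below both of B, as did 34.5% of all probe sets. Both arrays of A lay above both of B for 5 of 7 muscle markers and 5 of 5 epidermal markers, as for 31.9% of all probe sets, and the other 2 muscle markers had both arrays of A below. The deposited table holds no background signal, so it does not show which markers were absent. Their part in the values of Scx, Tnmd, Mkx and Htra3 was not tested.

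The profile of each member over the 4 arrays, centred on its own mean, was set against those of all other probe sets by the root mean square distance in log2 units. The nearest named profiles were those of Cdk8, Zfp82 and Ccdc137 to Scx (0.0060, 0.0061 and 0.0068), and of Ssb, Ciao2a and 2610301B20Rik to Tnmd (0.0056, 0.0088 and 0.0103). Nearest to Mkx were Aldh1a1, Ddx5 and Grm7 (0.0023, 0.0065 and 0.0078), and to Htra3 Skint10, Ifnlr1 and Pigr (0.0025, 0.0026 and 0.0027). Over 4 arrays such likeness is common. Within 0.05 of Htra3 lay 26.0% of the other probe sets, within 0.05 of Scx 4.95%, of Mkx 2.38% and of Tnmd 1.62%. Distances among the members ran from 0.11 between Scx and Htra3 to 0.36 between Scx and Tnmd. The nearest profiles were picked as the smallest of 16491 distances per member. The distances among members were not picked, so they cannot be ranked against those.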

How the data were processed

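The data are the log2 values of Affymetrix mouse genome arrays that the authors deposited as 1 table, with a probe set per Entrez gene. The authors log transformed perfect-match probe values, quantile normalized them and fitted mixed models in JMP Genomics. How probes became the deposited values is not given in the sources used here. The log base was read from the range of the values and the study's log2 threshold, and signal over background is unknown. Array medians were 7.81 to 7.85, and the number of arrays limits the precision. After 64 control probe sets were left out, genotypes were compared over 16492 probe sets with limma 3.58.1 in R 4.3.3 (lmFit and eBayes, Benjamini-Hochberg adjustment). Genotype was the only term. The study's model also held probe as a fixed and sample as a random term, which 1 value per gene does not allow. The alternative took the replicate number as a block. The pairing rests on the shared title suffix and the description of 2 hybridization experiments, and replicate differences of the genotypes had a correlation of 0.857 across probe sets. Code was tested on simulated data.

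The platform annotation names 15270 probe sets with 1 symbol each and leaves 1222 unnamed. Overlaps and promoters come from RefSeq. Genes named from lists were up to 4 per list with the largest difference of the same sign in both experiments, those past the thresholds in either fit, and the 3 nearest profiles per member. The members and lists were chosen with earlier results of these data known.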

Additional observations from a re-analysis of the deposited data

How the results depend on the processing

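No member passed the thresholds under any alternative run, and Mkx stayed above 0 in each. Htra3 was at 0.019 with quantile normalization repeated. With 1 array left out, log2 fold changes ran from -0.17 to 0.16 for Scx, -0.20 to 0.32 for Tnmd, 0.04 to 0.25 for Mkx and -0.028 to 0.013 for Htra3. Scx turned positive and Tnmd negative without transgenic replicate 1 (0.08 and -0.20) and without wildtype replicate 2 (0.16 and -0.15), and Htra3 was then at 0.0077 and 0.013. Tnmd and Htra3 have no value above the 50th percentile of mean signal, since they lie below it. Leaving out an array with the block leaves no residual degrees of freedom and was not run. The lone array left in a genotype is assumed to vary like the other genotype's.

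Over all probe sets, the replicate block gave 203 higher, 53 lower and 45 at an adjusted p under 0.05. With centred arrays too these were 166, 78 and 82, and with an intensity trend too 203, 53 and 48. Without the block (22, 9 and 0), the filters at the 25th and 50th percentile gave 13 and 4 higher and 2 and 2 lower, and the stricter one 1 at the adjusted p. Without moderation there were 9 higher and 5 lower. Centring gave 19 lower, and an intensity trend 24 lower and 1 at the adjusted p. With 1 array left out, 6 to 47 were higher and 4 to 9 lower. The extremes were 47 without wildtype replicate 1, 6 without wildtype replicate 2 and 4 lower without transgenic replicate 2, and 14 were higher without transgenic replicate 1. Tendon matrix genes past the thresholds numbered 5 with the block, 2 with centring too and 5 with a trend too. Relatives of the members numbered 3 in each of these, and 0 to 1 with 1 array left out (Tcf21 without wildtype replicate 1, Cnmd without transgenic replicate 2). The cause of these shifts was not tested.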

Other observations

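The genes given here were singled out after their values were seen. Of the 7 skeletal muscle markers, 5 had both arrays of A above both of B and 2 had them below. Of all probe sets, 31.9% lay above and 34.5% below in this way, so opposite orders within a list are common. Myog and Myod1 had the highest and the lowest difference between experiments of the 7. Myog, the factor of muscle cells that differentiate, was at 10.68 and 10.75 in the wildtype and transgenic arrays of experiment A and at 9.78 and 10.01 in those of experiment B. Myod1, which commits cells to the muscle lineage, was at 8.60 and 8.51 in A and at 9.01 and 9.36 in B. Experiment A was thus higher by 0.82 for Myog and lower for Myod1 (A minus B of -0.63), in both genotypes. The tendon matrix genes Dcn, Lox and Thbs2 were higher in A by 1.22, 0.93 and 0.73, the largest such differences of their list. The 24 genes of that list had a median of 0.07, with 12 wholly above and 4 wholly below in A. The limb patterning genes Hoxd11, Tbx4 and Tbx5 were lower in A (A minus B of -0.88, -0.82 and -0.74), in a list with a median of -0.63. Col2a1, whose promoter drives the transgene, was lower in A too (A minus B of -1.21), with a genotype difference of -0.02 in A and 0.20 in B.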
